A study of Mus musculus with 6 samples.

Results

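The 9 genes described here encode the 3 chains of fibrinogen (Fga, Fgb and Fgg) and 6 proteins that start, restrain or undo clotting at the cell surface (Plau, Plaur, Plat, F3, Thbd and Procr). They were taken by symbol from a table of 21367 genes, and all 9 were among the 13036 genes with enough counts to be tested. The study compared kidneys of 3 Ptpn6+/mev mice with kidneys of 3 wild-type littermates after renal ischemia-reperfusion injury (IRI). Ptpn6 encodes the tyrosine phosphatase SHP-1, and the mutant mice carry 1 viable motheaten allele, a splice site mutation, beside 1 normal allele on a C57BL/6J background. The labels also call this genotype an SHP1 knockdown. All 6 mice were 7 weeks old, had lost the right kidney, and had the left renal pedicle clamped for 34 min. The left kidney was taken at 24 h of reperfusion. The methods also list an intraperitoneal injection of the anticoagulant heparin around the clamping, which both groups share. Each library is polyadenylated RNA from the kidney of a single mouse, and no library from an uninjured kidney was analysed here.

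Fibrinogen is assembled from α, β and γ chains, is made mainly by hepatocytes, and is cut by thrombin into the fibrin of a clot. Injured tubular epithelium of the kidney is also known to transcribe the 3 chain genes. Tissue factor (F3) starts the clotting cascade, while thrombomodulin (Thbd) and the endothelial protein C receptor (Procr) turn thrombin toward activation of protein C, which slows the cascade. Fibrin is dissolved by plasmin, which urokinase (Plau) and tissue-type plasminogen activator (Plat) release from plasminogen. The urokinase receptor (Plaur) holds urokinase at the cell surface.

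The fibrinogen genes lie next to each other within 42140 bases of chromosome 3 (GRCm38). Fgg (ENSMUSG00000033860) covers chr3:83007724-83015049 on the plus strand, with 10 exons in its first listed transcript. Fga (ENSMUSG00000028001) covers chr3:83026076-83033627 on the plus strand. Fgb (ENSMUSG00000033831) covers chr3:83040141-83049863 on the minus strand. The bases just before the 3 genes are shown because these genes had similar profiles over the 6 libraries. Fga and Fgg were each nearer in profile to genes other than the fibrinogen chains, as given below. The bases come from the RefSeq promoter table for GRCm38.p6, which matched 6 of the 9 genes (Fga, Fgb, Fgg, F3, Plaur and Procr). They run 5′ to 3′ on the strand of the gene, up to the RefSeq start for Fgb (chr3:83049864-83050113, minus strand) and Fgg (chr3:83007474-83007723, plus strand). For Fga the last 77 bases before the RefSeq start lie inside the GENCODE gene model and are not printed (chr3:83025903-83026075, plus strand). Capitals mark CTGGGAA, the core of an interleukin-6 response element, and GTTAAT, part of an HNF-1 site, on either strand (GTTAAT on the minus strand reads ATTAAC).
Fga: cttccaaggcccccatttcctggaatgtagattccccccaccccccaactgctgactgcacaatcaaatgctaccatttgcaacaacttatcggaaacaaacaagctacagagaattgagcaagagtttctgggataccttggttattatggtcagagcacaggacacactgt
Fgb: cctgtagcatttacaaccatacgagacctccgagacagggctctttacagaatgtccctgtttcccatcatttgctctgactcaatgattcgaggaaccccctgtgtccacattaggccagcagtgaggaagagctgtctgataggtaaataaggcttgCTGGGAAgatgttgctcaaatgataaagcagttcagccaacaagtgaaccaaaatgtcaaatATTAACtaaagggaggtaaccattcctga
Fgg: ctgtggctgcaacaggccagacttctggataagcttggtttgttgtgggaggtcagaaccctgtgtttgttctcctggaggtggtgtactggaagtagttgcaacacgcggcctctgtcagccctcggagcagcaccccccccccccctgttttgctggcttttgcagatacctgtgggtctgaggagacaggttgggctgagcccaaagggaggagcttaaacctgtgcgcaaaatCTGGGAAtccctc

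Within the 250 bases before the start, CTGGGAA occurred in Fgb, beginning 91 bases before the start, and in Fgg, beginning 13 bases before it. The same letters on either strand occurred in 9.1% of all 32851 promoters searched. GTTAAT occurred on the minus strand of Fgb, 29 bases before the start, and of Fga, 43 bases before the start in the stretch that is not printed. It occurred in 6.43% of all promoters. The C/EBP pattern TTNNGNAA occurred in Fga, Fgb, Plaur and Procr against 36.8% of all promoters, and the STAT pattern TTCNNNGAA occurred in Fga and Fgb against 7.02%. The AP-1 pattern TGANTCA occurred in Fgb, Plaur, F3 and Procr against 6.75%, and the NF-kB pattern GGGNNTTCC occurred in Fgb against 4.98%. In the Fgb window the STAT and NF-kB matches overlap each other. The GC box GGGCGG occurred 3 times in Plaur, where the last 2 matches share a base, and 3 times in F3, against 32.7% of all promoters. The TATA box letters TATAAA were not found in the windows of these 6 genes, nor were the hypoxia response core ACGTG or the EGR1 pattern GCGTGGGCG. These occurred in 12.4%, 16.6% and 0.536% of all promoters, so their absence from 6 windows says little. A match describes letters only, and binding was not measured.

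The libraries held 10271590 to 12361745 counts. Ptpn6, the mutated gene, was at 11.85, 14.66 and 13.61 FPKM (fragments scaled to transcript length and library size) in Ptpn6+/mev and at 17.47, 10.87 and 15.44 FPKM in wild-type kidneys. These values overlapped, and the mutation lies at a splice site, so the gene's total level does not check the genotype. Wild-type replicate 2 stood apart from the other 5 libraries. Its summed level of 12 endothelial marker genes was 138 FPKM against 310 to 358 FPKM in the others. Its fibroblast and pericyte markers summed to 97.7 FPKM against 309 to 387 FPKM, and Kap, a proximal tubule gene, stood at 10201 FPKM against 1520 to 2882 FPKM. Values without it are given below where leaving it out changes a call.

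By mean FPKM, the fibrinogen chains were present in Ptpn6+/mev kidneys at 50.1% to 56.8% of their wild-type level. Plat was present at 1.71 times its wild-type level by the same measure. None of the 9 genes passed a false discovery rate (FDR) of 0.05 over all tested genes in edgeR's quasi-likelihood test, in which 0.138% of tested genes passed. At an unadjusted p under 0.05, 3 of the 9 genes were lower (Fga, Fgb and Fgg; 6.71% of tested genes) and 2 were higher (Plat and Plaur; 5.53%). Other tests on the same counts called 4 of the 9 genes, Fga, Fgb, Fgg and Plat, at an FDR under 0.05. These were the DESeq2 Wald test, with 2.97% of tested genes called, and edgeR's exact test, with 2.99%. The same quasi-likelihood fit called Fga and Plat once wild-type replicate 2 was left out, with 1.80% of tested genes called. In FPKM the 3 libraries of each group did not overlap for Fga, Fgb and Fgg (lower in Ptpn6+/mev, 6.38% of tested genes) or for Plat, Plaur and Procr (higher, 14.0%).

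Fga, which encodes the α chain whose N-terminal peptide thrombin removes, was measured at 145.26, 179.69 and 164.96 FPKM in Ptpn6+/mev kidneys and at 244.91, 358.21 and 374.18 FPKM in wild-type kidneys. Every Ptpn6+/mev library lay below every wild-type library, and wild-type replicate 1 was the lowest of its group. The means were 163 ± 17.3 and 326 ± 70.5 FPKM (SD, n = 3 each). The log2 fold change was -1.07 (SE 0.17, 95% confidence interval -1.47 to -0.67) with an edgeR FDR of 0.0685, the 51st smallest p among tested genes. The FDR was 0.0231 without wild-type replicate 2, with a log2 fold change of -0.96, and 0.0335 without wild-type replicate 1, with a log2 fold change of -1.25. It was 0.0884 without wild-type replicate 3, and 0.284, 0.148 and 0.369 without Ptpn6+/mev replicates 1, 2 and 3.

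Fgb encodes the β chain. It was measured at 24.06, 32.42 and 28.88 FPKM in Ptpn6+/mev kidneys and at 36.77, 54.83 and 63.94 FPKM in wild-type kidneys. The groups did not overlap, but the gap between the highest mutant and the lowest wild-type library was small beside the spread of the wild-type libraries. Its log2 fold change was -0.94 (SE 0.21, 95% confidence interval -1.41 to -0.46) with an edgeR FDR of 0.122.

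Fgg encodes the γ chain, through which fibrin strands are cross-linked and platelets and leukocytes bind. It was measured at 173.62, 250.00 and 231.02 FPKM in Ptpn6+/mev kidneys and at 283.84, 482.68 and 385.48 FPKM in wild-type kidneys. Wild-type replicate 2 was the highest library, and no Ptpn6+/mev library reached the lowest wild-type library. Fgg had a log2 fold change of -0.90 (SE 0.22, 95% confidence interval -1.41 to -0.38) with an edgeR FDR of 0.16, and it was -0.66 without wild-type replicate 2, with an FDR of 0.0734.

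**Figure D1:**
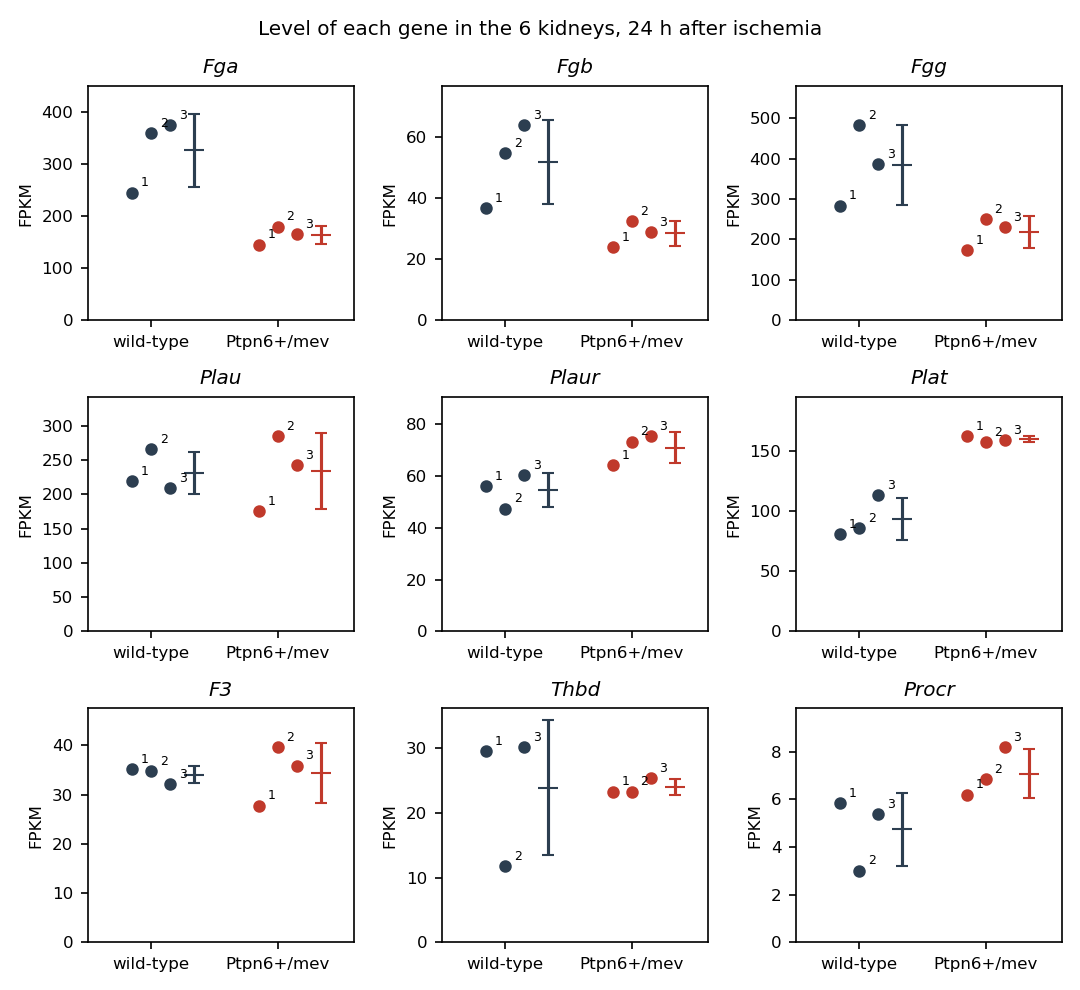
Level in FPKM of each of the 9 genes in the 3 wild-type and 3 Ptpn6+/mev kidneys at 24 h after ischemia, with replicate numbers beside the points and the mean and SD at the right of each group. The Ptpn6+/mev points of Fga, Fgb and Fgg all lie below the wild-type points, those of Plat, Plaur and Procr all lie above them, and those of Plau, F3 and Thbd overlap.

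The proportions of the chains to each other overlapped between the groups. The ratio of Fga to Fgb in FPKM was 6.04, 5.54 and 5.71 in Ptpn6+/mev and 6.66, 6.53 and 5.85 in wild-type kidneys. The ratio of Fgg to Fgb was 7.22, 7.71 and 8.00 in Ptpn6+/mev and 7.72, 8.80 and 6.03 in wild-type kidneys. The means were 5.76 ± 0.25 and 6.35 ± 0.43 for Fga to Fgb and 7.64 ± 0.40 and 7.52 ± 1.40 for Fgg to Fgb (SD, n = 3 each). Exact two-sided permutation tests gave p = 0.2 and p = 0.9, but 3 against 3 cannot go below 0.1, so they cannot show a difference at 0.05. For Fga to Fgb the groups overlapped only through wild-type replicate 3, at 5.85, and Ptpn6+/mev replicate 1, at 6.04. The distance of Fgb from the other chains in FPKM depends in part on transcript length. Counts and FPKM together imply a transcript of 3822 bases for Fgb, 2098 bases for Fga and 1704 bases for Fgg, and the only coding transcript of Fgb in GENCODE has 3810 bases. In raw counts, not corrected for length, Fga to Fgb was 3.17 ± 0.14 in Ptpn6+/mev and 3.48 ± 0.24 in wild-type kidneys (SD, n = 3 each).

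Centred on the mean of the 6 libraries on the log2 scale of counts scaled to library size (CPM), Fga and Fgb differed by a root mean square of 0.097, Fga and Fgg by 0.161, and Fgb and Fgg by 0.167. Among all other tested genes, the profile nearest to Fga was that of Dnase1, a secreted nuclease, at 0.062, followed by Gc, the vitamin D-binding protein, at 0.0952. For Fgb the nearest were Fga at 0.097 and Gc at 0.101. For Fgg they were H2-Ab1, a class II histocompatibility chain, at 0.118 and Rfesd at 0.151. These distances describe 6 libraries that also differ by genotype.

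**Figure D2:**
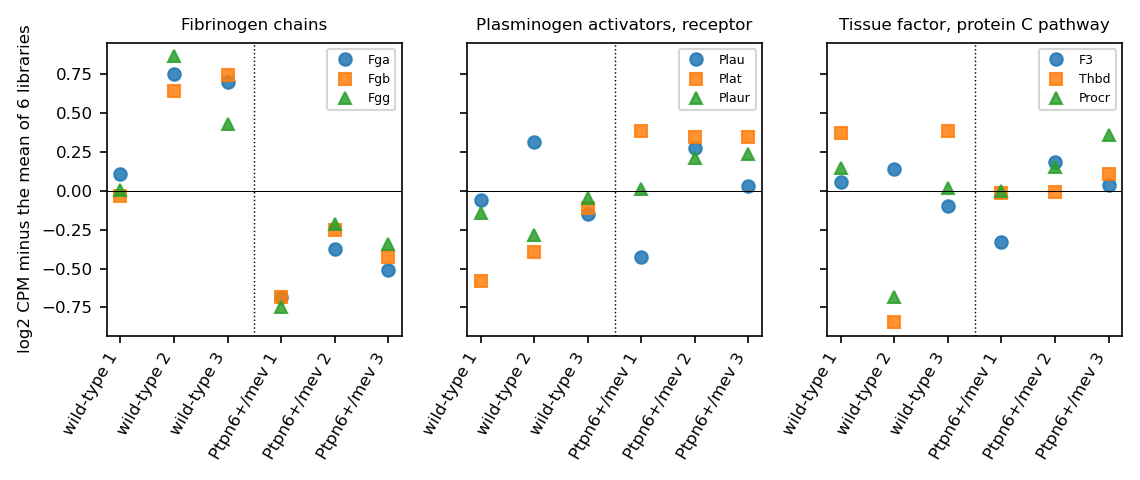
Log2 CPM of each gene minus its mean over the 6 libraries, by library, for the fibrinogen chains, the plasminogen activators with the urokinase receptor, and tissue factor with the protein C pathway; the dotted line divides wild-type from Ptpn6+/mev kidneys. The 3 fibrinogen chains are lower in every Ptpn6+/mev library than in every wild-type library, while Thbd and Procr are lowest in wild-type replicate 2.

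Only 1 protein-coding gene beside the cluster had enough counts to be tested. Plrg1, a splicing factor gene next to Fgb, was at 31.5 ± 1.58 FPKM in Ptpn6+/mev and 29.2 ± 1.57 FPKM in wild-type kidneys (SD, n = 3 each). Its log2 fold change was 0.04 (SE 0.09, edgeR FDR 0.911). Rbm46, Lrat and Dchs2, the other measured protein-coding genes within 200 kb on either side, had group means of at most 0.17 FPKM and were not tested. These neighbours were looked at after the values of the cluster were seen.

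Liver markers were examined because hepatocytes are the main source of plasma fibrinogen. Ahsg and Cps1 were at 0 in all 6 libraries, and Apoa1 did not exceed 0.26 FPKM. Other genes of the list were expressed, at 19.18 to 38.14 FPKM for Ttr, 3.98 to 17.48 FPKM for Serpina1a and 4.06 to 19.92 FPKM for Apob. Of the 13 liver markers 7 were tested, and 4 of these were lower at an unadjusted p under 0.05, against 6.71% of all tested genes. The most abundant were Ttr, with a log2 fold change of 0.31 (edgeR FDR 0.64), and Serpina1a, with -1.09 (FDR 0.231). Apob and Alb were singled out after their values were seen. Apob had a log2 fold change of -1.43 (FDR 0.0675), and Alb was at 1.70 to 2.23 FPKM in Ptpn6+/mev and 3.68 to 6.29 FPKM in wild-type kidneys, with a log2 fold change of -1.49 and an edgeR FDR of 0.0852. The summed level of the list was 44.6 to 55.4 FPKM in Ptpn6+/mev and 46.9 to 81.6 FPKM in wild-type kidneys. Ttr was the largest part of this sum in every library. It was at 32.95, 25.49 and 38.14 FPKM in Ptpn6+/mev and 23.80, 30.61 and 19.18 FPKM in wild-type kidneys. Of the 7 tested markers, 6 had a log2 fold change below 0 and 1 above it. Their median was -0.80, against -0.0024 over all tested genes. In bulk kidney RNA, fewer cells of a type and less RNA per cell cannot be told apart. Of 10 proximal tubule markers, 4 were lower at an unadjusted p under 0.05 (Lrp2, Cubn, Slc22a6 and Miox; 6.71% of all tested genes), and the list summed to 4156 to 4850 FPKM in Ptpn6+/mev and to 4797, 12443 and 3690 FPKM in wild-type kidneys. The high sum of wild-type replicate 2 is mostly Kap. The part of tubule content in the fibrinogen result was not tested.

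Plat (ENSMUSG00000031538, chr8:22757727-22782844, plus strand), the tissue-type activator of plasminogen, was measured at 162.61, 157.73 and 159.37 FPKM in Ptpn6+/mev kidneys and at 80.88, 85.93 and 113.63 FPKM in wild-type kidneys. The Ptpn6+/mev libraries were close to each other and all lay above the highest wild-type library. The means were 160 ± 2.48 and 93.5 ± 17.6 FPKM (SD, n = 3 each). The log2 fold change was 0.71 (SE 0.12, 95% confidence interval 0.43 to 0.99) with an edgeR FDR of 0.0786. It was 0.68 with an FDR of 0.0335 without wild-type replicate 2, and 0.84 with an FDR of 0.0286 without wild-type replicate 3. The FDR was 0.241 without wild-type replicate 1, and 0.288, 0.18 and 0.383 without Ptpn6+/mev replicates 1, 2 and 3. The tested protein-coding neighbours within 200 kb (Slc20a2, Vdac3, Polb, Ikbkb, Ap3m2 and Kat6a, also examined afterwards) had log2 fold changes from -0.22 to 0.18, with FDRs from 0.511 to 0.992. The profiles nearest to Plat were those of Pxdc1 at 0.0542 and Phgdh, the first enzyme of serine synthesis, at 0.0743.

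Plau (ENSMUSG00000021822, chr14:20836660-20843385, plus strand), which encodes urokinase, was measured at 175.94, 285.16 and 242.25 FPKM in Ptpn6+/mev kidneys and at 219.42, 266.26 and 209.21 FPKM in wild-type kidneys. The groups overlapped over most of their range. Plau had a log2 fold change of -0.06 (SE 0.19), with a 95% confidence interval of -0.50 to 0.38 and an edgeR FDR of 0.94. Its sign turned without Ptpn6+/mev replicate 1, at 0.11, and without wild-type replicate 2, at 0.09. The nearest profiles were those of Tm7sf2 at 0.0455 and Nicn1 at 0.0603.

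Plaur (ENSMUSG00000046223, chr7:24462484-24475968, plus strand), the membrane-anchored receptor of urokinase, was measured at 64.23, 73.27 and 75.39 FPKM in Ptpn6+/mev kidneys and at 55.96, 47.38 and 60.45 FPKM in wild-type kidneys. All Ptpn6+/mev libraries were higher than all wild-type libraries, the nearest by only a few FPKM. Plaur had a log2 fold change of 0.31 (SE 0.10, 95% confidence interval 0.07 to 0.55) with an unadjusted p of 0.0165 and an edgeR FDR of 0.274. The nearest profiles were those of Sfn at 0.0334 and Zfp282 at 0.0347.

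Of 11 tubular injury markers, 4 (Havcr1, Krt8, Krt18 and Vcam1) were higher and Spp1 was lower at an unadjusted p under 0.05, against 5.53% of all tested genes higher and 6.71% lower. Havcr1, the kidney injury molecule, singled out after its values were seen, averaged 1505 FPKM in Ptpn6+/mev and 1203 FPKM in wild-type kidneys. The summed injury list, led by Spp1 and Clu, was 27095 to 33124 FPKM in Ptpn6+/mev and 30345 to 39051 FPKM in wild-type kidneys. This sum is mostly Spp1, at 20881, 22410 and 25507 FPKM in Ptpn6+/mev and 27631, 32920 and 24406 FPKM in wild-type kidneys. Of the 11 markers, 8 had a log2 fold change above 0 and 3 below it. Their median was 0.27, against -0.0024 over all tested genes. The part of tubular injury in the values of Plat and Plaur was not tested.

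F3 (ENSMUSG00000028128, chr3:121723537-121735048, plus strand), which encodes tissue factor, the cell surface receptor of factor VII, was measured at 27.75, 39.64 and 35.87 FPKM in Ptpn6+/mev kidneys and at 35.21, 34.82 and 32.05 FPKM in wild-type kidneys. The 3 wild-type values fell within the range of the Ptpn6+/mev values. F3 had a log2 fold change of -0.06 (SE 0.14, 95% confidence interval -0.38 to 0.27) with an edgeR FDR of 0.923. Its sign turned when FPKM values were tested in place of counts and without Ptpn6+/mev replicate 1, where it was 0.08. Slc29a2 at 0.0477 and Mcee at 0.0484 had the nearest profiles.

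Thbd (ENSMUSG00000074743, chr2:148404466-148408188, minus strand), the single-exon gene of thrombomodulin, was measured at 23.32, 23.31 and 25.42 FPKM in Ptpn6+/mev kidneys and at 29.64, 11.85 and 30.22 FPKM in wild-type kidneys. The wild-type libraries lay on both sides of the Ptpn6+/mev libraries, with replicate 2 far below the others. The log2 fold change was -0.05 (SE 0.28, 95% confidence interval -0.70 to 0.61) with an edgeR FDR of 0.972. It was -0.36 without wild-type replicate 2 (FDR 0.0695), 0.12 without wild-type replicate 1 and 0.14 without wild-type replicate 3. The low value of replicate 2 stood beside its low endothelial sum of 138 FPKM, in which Plvap and Egfl7 are the most abundant genes. The part of endothelial content in it was not tested. Ctsk at 0.0662 and Notch1 at 0.0702 had the profiles nearest to Thbd.

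Procr (ENSMUSG00000027611, chr2:155751117-155755471, plus strand), the receptor that presents protein C to thrombomodulin-bound thrombin, was the least abundant of the 9 genes, at 6.20, 6.85 and 8.20 FPKM in Ptpn6+/mev and 5.84, 3.01 and 5.40 FPKM in wild-type kidneys. These rest on 89, 100 and 121 counts in Ptpn6+/mev and 101, 53 and 107 counts in wild-type kidneys. In FPKM the groups were apart, but in log2 CPM wild-type replicates 1 (3.26) and 3 (3.13) lay above Ptpn6+/mev replicate 1 (3.11). The transcript length implied by its counts and FPKM was 1371 to 1409 bases in the Ptpn6+/mev and 1603 to 1604 bases in the wild-type libraries, so the separation in FPKM rests in part on this difference in the length used. The log2 fold change from counts was 0.31 (SE 0.25, 95% confidence interval -0.26 to 0.88) with an edgeR FDR of 0.686, and it was 0.09 without wild-type replicate 2. The profile nearest to Procr was that of Cd93, an endothelial and myeloid surface protein, at 0.057, followed by Bace2 at 0.0602.

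**Figure D3:**
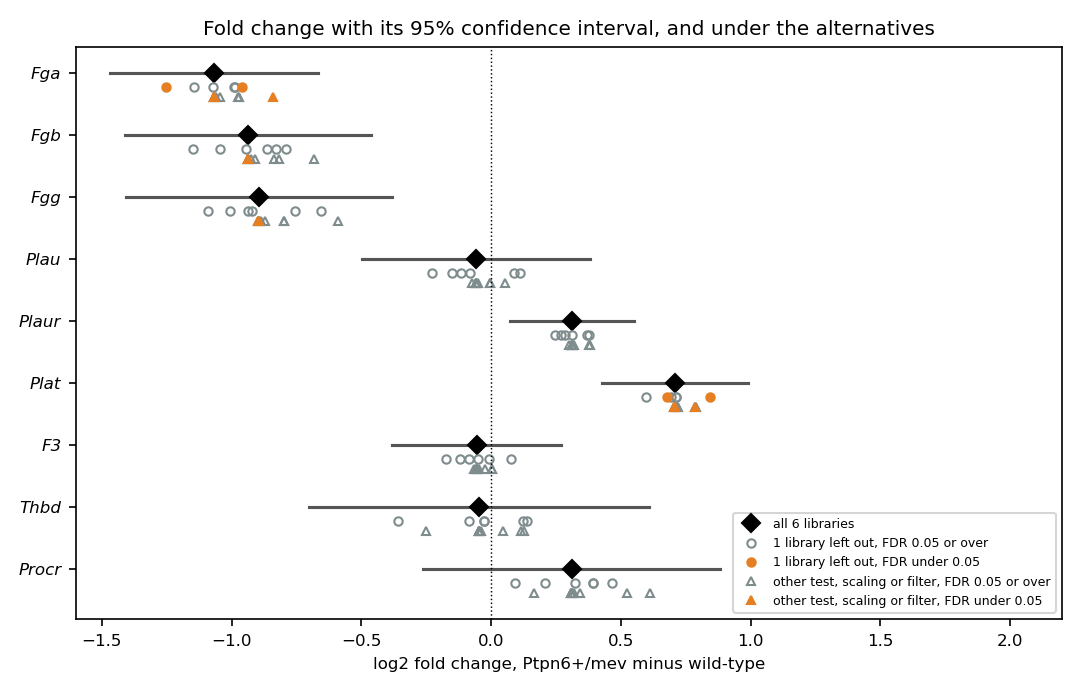
Log2 fold change of each gene, Ptpn6+/mev minus wild-type, from edgeR with its 95% confidence interval (diamond and line), with the values after leaving out 1 library (circles) and under other tests, scalings or filters (triangles), filled where the FDR was under 0.05. Fga, Fgb and Fgg stay below 0 and Plat, Plaur and Procr stay above 0 under every setting shown, while Plau, F3 and Thbd fall on both sides.

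The genotypes differed in the order of the levels per length. In wild-type kidneys the mean FPKM ran, from high to low, Fgg (384), Fga (326), Plau (232), Plat (93.5), Plaur (54.6), Fgb (51.8), F3 (34.0), Thbd (23.9) and Procr (4.75). Neighbours in this order whose libraries overlapped were Fgg with Fga, Fga with Plau, and Plaur with Fgb. In Ptpn6+/mev kidneys Plau came first (234), followed by Fgg (218), Fga (163), Plat (160), Plaur (71.0), F3 (34.4), Fgb (28.5), Thbd (24.0) and Procr (7.08). Libraries overlapped there between Plau and Fgg, Fgg and Fga, Fga and Plat, F3 and Fgb, and Fgb and Thbd. Fga ranked 244th of all 21367 genes in wild-type and 535th in Ptpn6+/mev kidneys, while Plat ranked 1004th in wild-type and 545th in Ptpn6+/mev kidneys.

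The wider pathway was read from 6 lists that hold 75 rows of the table, 55 of them tested. None passed an FDR of 0.05 in the quasi-likelihood test, 3 were higher and 7 lower at an unadjusted p under 0.05, and DESeq2 and edgeR's exact test each called 4 genes (C3, Hpn, Serpinf2 and Tgm1), against 2.97% and 2.99% of all tested genes. Without wild-type replicate 2 the quasi-likelihood fit called these and Klkb1, against 1.80% of all tested genes. Among the 13036 tested genes, 721 were higher and 875 lower at that p, and their log2 fold changes had a median of -0.0024.

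Several precursors that act with these 9 genes were at or near 0 in the kidney libraries. Plg, the gene of plasminogen, was at 0 in all 6 libraries, and F2, the gene of prothrombin, was at 0.04 FPKM in wild-type replicate 3 and at 0 in the other 5. F7, the ligand of tissue factor, did not exceed 0.1 FPKM. Of 14 coagulation factor genes 8 were tested, none had an unadjusted p under 0.05, and their median log2 fold change was -0.35. Of the 14 genes, 9 averaged under 1 FPKM over the 6 libraries, some of the tested genes among them. Klkb1, the gene of plasma prekallikrein, singled out after its values were seen, was at 0.46, 0.37 and 0.35 FPKM in Ptpn6+/mev and 0.05, 0.31 and 0.09 FPKM in wild-type kidneys. At these low levels the groups were apart, with a log2 fold change of 1.28 and an edgeR FDR of 0.431, and of 2.35 with an FDR of 0.0456 without wild-type replicate 2. The most abundant was Kng2, a kininogen gene, at 93.1 ± 3.17 FPKM in Ptpn6+/mev and 128 ± 47.8 FPKM in wild-type kidneys (log2 fold change -0.55, edgeR FDR 0.434). F13b, the carrier subunit of the fibrin cross-linking factor XIII, was at 17.1 ± 1.85 and 19.1 ± 4.07 FPKM (log2 fold change -0.24, FDR 0.675).

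Of 10 genes of coagulation inhibitors 7 were tested, with a median log2 fold change of -0.17. Proc, the gene of protein C, was at 29.86, 38.52 and 38.44 FPKM in Ptpn6+/mev and 46.32, 39.88 and 38.93 FPKM in wild-type kidneys. The groups were apart by less than 1 FPKM, with a log2 fold change of -0.30, an unadjusted p of 0.0487 and an edgeR FDR of 0.402. Its cofactor Pros1 was at 12.8 ± 0.09 and 13.8 ± 0.79 FPKM (log2 fold change -0.17, FDR 0.508). Tfpi, which blocks tissue factor with factor VII, was at 6.05 ± 0.98 and 5.54 ± 1.98 FPKM (log2 fold change 0.02, FDR 0.947).

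Of 13 genes of plasminogen, its receptors and inhibitors 11 were tested, with a median log2 fold change of -0.09. At an unadjusted p under 0.05, 1 was higher and 2 were lower, against 5.53% and 6.71% of all tested genes. S100a10 and Anxa2 form a surface complex that binds plasminogen and Plat. S100a10 was at 1117 ± 39.3 and 1134 ± 19.6 FPKM (log2 fold change -0.09, FDR 0.715). Anxa2 was at 784.01, 871.25 and 925.17 FPKM in Ptpn6+/mev and 679.83, 492.80 and 696.64 FPKM in wild-type kidneys (log2 fold change 0.41, FDR 0.21), with no overlap. Serpinf2, the plasma inhibitor of plasmin, and Hpn, a membrane serine protease, were singled out after their values were seen. Serpinf2 was at 16.14, 32.65 and 18.87 FPKM in Ptpn6+/mev and 63.02, 37.26 and 54.57 FPKM in wild-type kidneys (log2 fold change -1.22, SE 0.28, FDR 0.134, or 0.0315 without wild-type replicate 2). Hpn was at 112 ± 3.76 and 147 ± 4.56 FPKM (log2 fold change -0.47, SE 0.09, FDR 0.102, or 0.0376 without wild-type replicate 2).

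Among the 4 protease-activated receptor genes 2 were tested. F2rl1, a receptor cut by trypsin-like proteases and by factor VII with tissue factor, was at 56.25, 59.49 and 59.53 FPKM in Ptpn6+/mev and 42.78, 42.99 and 50.16 FPKM in wild-type kidneys. The groups were apart, with a log2 fold change of 0.30 (SE 0.09), an unadjusted p of 0.00982 and an edgeR FDR of 0.222. F2r, the main thrombin receptor, was at 40.7 ± 7.77 and 33.3 ± 19.0 FPKM (log2 fold change 0.24, FDR 0.879), and was lowest in wild-type replicate 2 at 11.81 FPKM.

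The list of fibrin and fibrinogen receptors, cross-linking enzymes and relatives held 13 rows, 11 of them tested. Of these 11, 1 was higher (Itgb3) and 2 were lower (Tgm1 and Icam1) at an unadjusted p under 0.05. The background shares at this p were 5.53% higher and 6.71% lower of the 13036 tested genes. The list had a median log2 fold change of 0.10. Tgm2, the tissue transglutaminase, and Itgav, an integrin chain that binds fibrinogen, were its most abundant members, at log2 fold changes of 0.02 (edgeR FDR 0.964) and -0.02 (FDR 0.945). Tgm1, singled out after its values were seen, is known for cross-linking the surface of keratinocytes rather than fibrin. It was at 12.43, 27.39 and 18.08 FPKM in Ptpn6+/mev and 56.44, 53.68 and 51.05 FPKM in wild-type kidneys (log2 fold change -1.55, SE 0.25, FDR 0.0685, or 0.0214 without wild-type replicate 2 and 0.0333 without Ptpn6+/mev replicate 2).

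Fibrinogen is also an acute phase protein, and 21 other genes of that response or of interleukin-6 signaling were listed. Of the 16 tested, 2 (C3 and Socs3) were lower and none was higher at an unadjusted p under 0.05. Over all tested genes the shares were 6.71% lower and 5.53% higher. The median log2 fold change of the 16 was -0.17. The most abundant, Lcn2, was at 1183, 1130 and 2269 FPKM in Ptpn6+/mev and 1511, 2080 and 962 FPKM in wild-type kidneys, with no separation of the groups (log2 fold change -0.08, edgeR FDR 0.961). Stat3, the transcription factor of interleukin-6 signaling, was at 60.7 ± 2.84 and 68.0 ± 11.3 FPKM (log2 fold change -0.24, FDR 0.421). C3, the central complement protein, and Socs3, an inhibitor of that signaling, were singled out after their values were seen. C3 was at 15.20, 26.71 and 19.67 FPKM in Ptpn6+/mev and 44.12, 31.45 and 46.18 FPKM in wild-type kidneys (log2 fold change -1.06, FDR 0.104, or 0.0229 without wild-type replicate 2). Socs3 was at 22.9 ± 6.28 and 30.7 ± 3.16 FPKM (log2 fold change -0.49, FDR 0.353). Hp, which encodes haptoglobin and was also singled out afterwards, varied from 1.69 to 60.96 FPKM over the 6 libraries, with overlapping groups (log2 fold change -0.20, FDR 0.968).

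**Figure D4:**
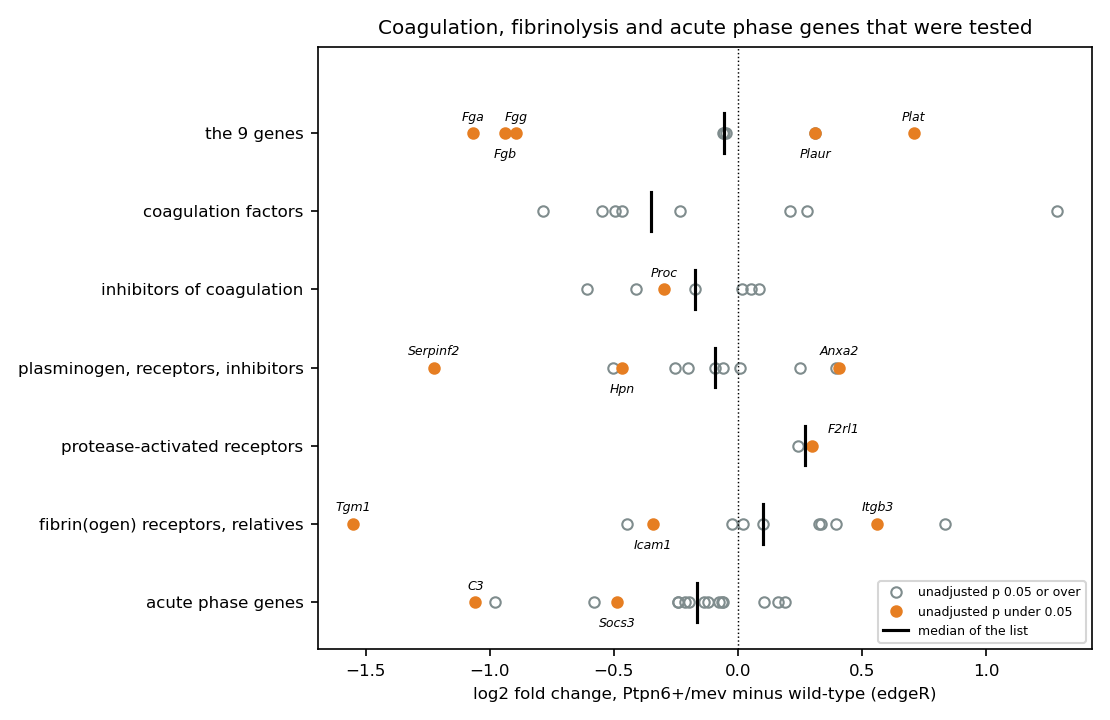
Log2 fold change from edgeR, Ptpn6+/mev minus wild-type, of each tested gene among the 9 genes and in 6 lists of coagulation, fibrinolysis and acute phase genes, with filled points at an unadjusted p under 0.05 and a bar at each list's median. The fibrinogen chains lie between -1.07 and -0.90, the point of Procr is covered by that of Plaur at 0.31, and list medians run from -0.35 for coagulation factors to 0.27 for protease-activated receptors.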

How the data were processed

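Polyadenylated RNA of 6 left kidneys, 1 mouse each, was sequenced. The authors trimmed the reads and aligned them with TopHat to GRCm38.p5, with gene expression evaluated by Cufflinks. The labels also name Bowtie2 and RSEM, whose roles are not given in the sources used here. The deposited table gives estimated counts and FPKM per library. The authors' FPKM divides by a transcript length, so levels of different genes were compared in FPKM, with the chain ratios also given in counts. The main tests used counts. Of 21367 genes, 1744 had a fractional count, none of them among the 9 genes. Counts were rounded and tested with edgeR 4.0.16 (R 4.3.3; TMM scaling, filterByExpr, quasi-likelihood test, Benjamini-Hochberg FDR) over all 13036 tested genes, 3 against 3 kidneys, with no covariate, after the procedure was tested on simulated data. Log2 CPM used a prior count of 2. Libraries held 10271590 to 12361745 counts. Of the 9 genes, those other than Procr had 486 to 9697 counts per library. No replicates agreed within sampling noise (chi-square per degree of freedom 6.48 to 45.3). Labels name no batch.

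Genes named were the 9 genes, the 2 genes nearest in profile to each of them, and partners (Plg, F2, F7, Tfpi, Proc, Pros1, F2r and F2rl1). Also named were the 2 most abundant genes of each of the 6 pathway lists and of the liver, endothelium and tubular injury lists. The same held for any list gene at an FDR under 0.05 in the quasi-likelihood test of all libraries. For the other marker lists, among them proximal tubule and fibroblasts, the 2 most abundant genes were not both named. Other genes (neighbours of the loci, marker genes such as Apob and Alb, and Klkb1, Serpinf2, Hpn, Tgm1, Itgb3, Icam1, C3, Socs3 and Hp) were named after their values were seen. A further partner gene is not reported here. Genes, lists and tests were chosen with earlier results of these data known. Alternatives were DESeq2 1.42.0 (size factors, Wald test), upper quartile scaling, edgeR's exact test, limma 3.58.1 on log2(FPKM + 1) and log2(FPKM + 0.1), no filter, at least 10 counts in every library, a replicate block, and each library left out. The limma-voom fit with sample quality weights was added after seeing the data.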

Additional observations from a re-analysis of the deposited data

How the results depend on the processing

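Across 16 alternatives the log2 fold change of Fga stayed between -1.25 and -0.84, of Fgb between -1.15 and -0.68, of Fgg between -1.09 and -0.59, of Plat between 0.60 and 0.84, of Plaur between 0.25 and 0.38 and of Procr between 0.09 and 0.61. The FDR depended on the test and on the libraries. With all libraries it ran from 4.56e-06 to 0.0892 for Fga and from 0.000174 to 0.187 for Plat, and with a library left out from 0.0231 to 0.369 for Fga and from 0.0286 to 0.383 for Plat. Of the 9 genes, 0 passed an FDR of 0.05 with all libraries in the quasi-likelihood test (0.138% of all genes tested). The DESeq2 Wald test called 4 (2.97% of all genes) and edgeR's exact test called 4 (2.99%). With no filter on low counts 1 passed (Fga; 0.315%). With limma-voom and sample quality weights 2 passed (Fga and Plat; 3.77%). With each library left out 0 to 2 passed (0.0076% to 1.80% of all genes). Past 2-fold the count was 0 (0.107% of all genes), against 1 in DESeq2 (1.06%), 1 in the exact test (1.24%), 1 with no filter (0.224%) and 0 to 1 with a library left out (0.0076% to 0.577%), Fga each time. Of the 75 rows of the pathway lists, 0 passed in the quasi-likelihood test of all libraries (0.138% of all genes). DESeq2 called 4 (2.97%), the exact test 4 (2.99%), the fit with no filter 1 (Tgm1; 0.315%) and limma-voom weights 7 (3.77%). With a library left out 0 to 5 passed (0.0076% to 1.80%). Both FPKM fits with limma called none of the 9 genes. The log2 difference in Fga to Fgb ran from -0.19 to -0.10 and in Fgg to Fgb from -0.11 to 0.15 with a library left out, and without wild-type replicate 3 or Ptpn6+/mev replicate 1 the Fga to Fgb ratios of the groups no longer overlapped. Signs turned for the genes near 0. F3 was at 0.0024 in limma with a pseudocount of 1 and 0.0020 with 0.1, and from -0.17 to 0.078 with a library left out. Thbd was at 0.12 and 0.13 in these fits, and from -0.36 to 0.14 with a library left out. Plau was at 0.054 with limma-voom weights, and from -0.23 to 0.11 with a library left out. The replicate numbers did not pair the samples (correlations of deviations -0.144, -0.184 and -0.13). With the number as a replicate block, 1 gene against 18 passed over all genes, 0 of the 9 genes and 0 of the pathway genes passed, Fga was at -1.05 (FDR 0.0892), Plat at 0.72 (FDR 0.187), and Thbd turned to 0.046. The causes were not tested. Procr rests on 53 to 121 counts per library, the fewest of the 9 genes.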
